A study of Mus musculus with 4 samples.

Results

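Arterial endothelial cells line the arteries and arterioles that carry blood into the brain, and here they were 1701 of 13809 gated brain endothelial cells and of 14864 cells that passed the quality filters. A barcode passed with at least 1000 UMIs (unique molecular identifiers, each standing for 1 captured RNA molecule), at least 500 genes and at most 10% of UMIs in mitochondrial genes. Endothelial cells needed at least 5 UMIs of Cldn5 and Flt1 together. They also had fewer than 50 UMIs of the haemoglobin genes Hbb-bs and Hba-a1. They had fewer than 5 UMIs of the pericyte genes Vtn, Kcnj8 and Abcc9 and fewer than 5 of the smooth muscle genes Acta2, Tagln and Myh11. The platelet genes Pf4 and Ppbp had fewer than 3. A gated cell was arterial when Gkn3, Sema3g, Vegfc, Stmn2, Fbln2 and Mgp summed to at least 4 UMIs. These measured values chose the cells, so the levels of the 6 genes, and of any gene in these cells against the remaining cells, are given as a description with no test.

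The study asked how loss of microglia affects the brain vasculature. Groups of C57BL6 mice were fed either plain control chow or chow with 1200 ppm of PLX5622 over 1 month. PLX5622 blocks CSF1R, a receptor on which microglia depend, and per the labels it removes most of them. Brain tissue without meninges, cerebellum and olfactory bulbs was dissociated, sorted for CD31, an endothelial surface protein, and sequenced with the 10x Genomics 3' v3.1 chemistry. Brains of 3 mice went into the 2 libraries of a diet, so libraries of 1 diet may share mice, and p-values measure only the spread between libraries, which may be technical. The labels give no age.

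Arterial endothelium is distinguished from capillary and venous endothelium by Notch signalling, with the ligand Dll4 and the target Hey1, and by SoxF transcription factors. It carries ephrin-B2 on its surface, connexins between its cells and an elastic matrix beneath it, and it meets higher shear stress and pressure than the rest of the vascular tree. In the brain it grades into the capillaries, which carry most of the nutrient transport of the blood-brain barrier.

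The libraries held 11186648 to 38600208 UMIs over 567554 to 872190 listed barcodes, and the cells that passed numbered 1696, 5509, 3989 and 3670 in control diet 1, control diet 2, PLX5622 diet 1 and PLX5622 diet 2, the order kept for all sets of 4 values below. Arterial cells numbered 193, 728, 315 and 465, with 1451145, 5815286, 1624348 and 3703974 UMIs in their sums. Levels are given as CPM (counts-per-million) of these sums. A count of 0 allows, at 3 counts, up to 2.07, 0.516, 1.85 and 0.810 CPM in the arterial sums. The median arterial cell held 6554, 6780.5, 4730 and 7031 UMIs, so PLX5622 diet 1 was the shallowest library. Control diet 1 had the smallest sum. Across libraries 42 cells shared a barcode with a cell of another library, 6 of them arterial. No doublets were called or removed.

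The sum of the 6 arterial genes showed no gap between arterial and other endothelial cells. Of the gated cells, 9310 had a sum of 0, 1645 a sum of 1, 724 a sum of 2 and 429 a sum of 3, while 271 had 4, 207 had 5 and the highest had 520. The arterial class is therefore a range of this sum and its lower edge is a choice. Just outside and just inside that edge, at 3 and at 4 UMIs, Bmx stood at 56.8 and 79.4 CPM, Hey1 at 125 and 121 CPM, and Efnb2 at 100.4 and 122 CPM. The venous transporter Slc38a5 stood at 67.9 and 35.1 CPM there. The median arterial cell had a sum of 8 UMIs.

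**Figure D1:**
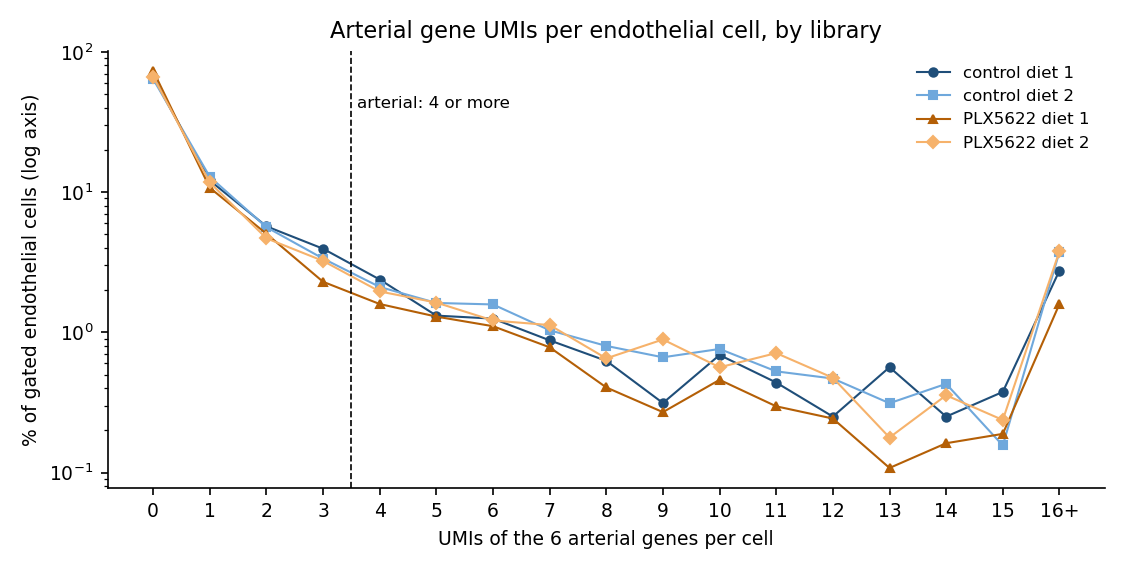
Share of gated endothelial cells (percent, log axis) against the sum of the 6 arterial genes (UMIs per cell), with 1 line per library and a dashed line at the threshold of 4 UMIs. The 4 lines fall smoothly through the threshold with no gap, and cells with 16 or more UMIs made up 2.76%, 3.75%, 1.59% and 3.79% of the libraries.

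The 6 genes marked overlapping rather than identical cells. Only 144 arterial cells (8.47%) had a UMI of all 6, while 179 (10.5%) had UMIs of 1 gene alone, most often Stmn2 (87 cells) or Sema3g (47 cells). Sema3g, a secreted semaphorin, was detected in 76.7% of arterial cells and Stmn2, a microtubule-destabilizing stathmin, in 74.5%. Gkn3, a gastrokine, was detected in 47.9%, Vegfc, a growth factor best known from lymphatic vessels, in 45.9%, Fbln2, a matrix fibulin, in 42.7%, and Mgp, the matrix Gla protein that inhibits calcification, in 36.9%. The gated cells that were not arterial were divided into a vein class of 884 cells, with at least 4 UMIs of Slc38a5 and Nr2f2, and a capillary class of the other 11224. In the capillary class the shares were 12.5% for Sema3g, 6.66% for Stmn2 and 1.72% to 2.62% for the other 4, at a median of 4691 UMIs per cell against 6419 in arterial cells. In the 229 cells of the pericyte gate (median 5450 UMIs), where these genes served as a check on free RNA, Stmn2 was found in 0 cells, Sema3g in 0.44%, Gkn3 in 0.87%, Vegfc in 2.18%, Fbln2 in 3.93% and Mgp in 80.8%. Mgp was thus not an endothelial gene alone in this tissue.

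Gkn3, Vegfc and Mgp were found together more often than the other genes. Of arterial cells with Gkn3, 52.0% also had Mgp and 59.7% had Vegfc, against 23.0% and 33.3% of arterial cells without Gkn3. Stmn2 went the other way, at 70.6% of arterial cells with Gkn3 and 78.0% of those without. Sema3g did not separate them, since Mgp was found in 36.9% of arterial cells with it and 36.9% without it. These shares are descriptive, because cells with fewer of the 6 genes enter the class only with more UMIs of another.

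Each of the 6 genes was also read in cells that the other 5 had chosen. Gkn3 stood at 453 CPM in those cells against 15.04 CPM in the remaining gated cells, Vegfc at 162 against 7.59 CPM, Fbln2 at 122 against 9.72 CPM and Mgp at 876 against 12.9 CPM. Stmn2 stood at 355 against 43.3 CPM and Sema3g at 266 against 42.3 CPM. All 6 were therefore higher in cells chosen without them, and Sema3g and Stmn2 reached furthest into the remaining endothelium. Gkn3 (ENSMUSG00000030048) lies on the minus strand of chromosome 6 from 87383256 to 87388935 in GRCm38.

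Genes outside the 6 gave the same cells an arterial profile. Compared library by library with all other gated endothelial cells, 129 of 9650 genes at 5 CPM or more were over 1 log2 unit higher in every library (1.34%), the 6 that chose the cells among them, and 26 were over 1 log2 unit lower (0.269%). The median log2 ratio over all 9650 genes was 0.0061, with 5 CPM added to each level. The list of arterial guidance, junction and surface genes had 7 of 14 genes past that mark and a median of 1.12. The arterial wall and elastic fibre list had 5 of 20 and a median of 0.81, and the transcription factor and Notch list had 1 of 16 and a median of 0.47. None of these lists holds any of the 6 genes.

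Clu, the secreted chaperone clusterin, had the largest ratio outside the 6 genes. It stood at 66.2, 109.5, 144 and 101 CPM in arterial cells, 1.54 to 6.59 CPM in the capillary class and at most 1.43 CPM in the vein class (log2 ratio to other endothelial cells 3.41 to 4.31 over libraries). Bmx, a kinase long used as an arterial marker, stood at 201, 202, 174 and 165 CPM against 9.37 to 16.7 CPM in capillary cells (3.37 to 3.64). Neither gene overlapped between classes in any library. Tmem100, a target of ALK1 signalling, read 118, 94.8, 171 and 109.6 CPM (3.19 to 3.59), and Cdh13, which encodes T-cadherin, read 82.0, 67.1, 82.5 and 68.6 CPM (2.62 to 3.13). Emp1, a small membrane protein, had log2 ratios of 2.25 to 3.21. The other 15 of the 20 genes named by the rule were Lrrc32, Ccnd2, Egfl8, Cdk19, Amd1, Msx1, Cd9, Pdgfa, Alpl, Alox12, Hey1, S100a10, Eps8l2, Mgst1 and Ccdc184, with lowest ratios from 1.41 to 2.14.

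Among the regulators of arterial fate, Hey1, the Notch-induced repressor, was the member past 1 log2 unit in every library, at 170.2, 127, 211 and 212 CPM against 45.5 to 65.1 CPM in capillary and 5.93 to 15.5 CPM in vein cells. Sox17, the SoxF factor, was graded less steeply, at 487, 537, 485 and 451 CPM against 312 to 401 CPM in capillary cells (log2 ratio 0.30 to 0.53). Dll4, the Notch ligand, had ratios of 0.32 to 0.60 and the receptor Notch1 of 0.26 to 0.46. Hes1, another Notch target, went the other way, with ratios of -0.81 to -0.63. The Notch pathway genes thus differed in direction among themselves.

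Surface, matrix and tone genes followed. Efnb2, which encodes ephrin-B2, read 168, 140.1, 132 and 121 CPM against 41.8 to 61.4 CPM in capillary and 8.42 to 24.8 CPM in vein cells (1.38 to 1.54). Unc5b, a netrin receptor of arterial endothelium, had ratios of 1.10 to 1.48, and Nrp1, the semaphorin and VEGF co-receptor, of -0.85 to -0.48. Gja4, the gap junction protein connexin 37, read 29.6, 38.3, 27.7 and 31.6 CPM against 1.92 to 5.25 CPM in capillary cells. In the elastic matrix, Eln (elastin) had ratios of 1.91 to 2.49, and Fbln5, a fibulin of elastic fibres, read 24.8, 40.2, 65.3 and 21.9 CPM against at most 0.154 CPM in capillary cells. Edn3, an endothelin, had ratios of 1.29 to 1.60, and Alpl, tissue-nonspecific alkaline phosphatase, read 450.0, 389, 356 and 353 CPM against 78.6 to 148 CPM in capillary cells. The shear-responsive factors Klf2 (-0.14 to -0.04) and Klf4 (-0.01 to 0.12) and the nitric oxide synthase Nos3 (0.03 to 0.11) stood at close to the same level as in other endothelial cells.

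Barrier transport genes were lower in arterial cells. Of 18 blood-brain barrier transporters 0 were over 1 log2 unit higher and 4 were over 1 log2 unit lower in every library, with a median of -0.38. Car4, a carbonic anhydrase of capillaries, read 138, 189, 112 and 162 CPM against 787 to 921 CPM in the capillary class. Slc16a1, the lactate transporter MCT1, had ratios of -1.76 to -1.43, Tfrc, the transferrin receptor, of -1.57 to -1.24, and Slc38a5, an amino acid transporter of veins and capillaries, stood at 29.4 to 39.4 CPM against 412 to 534 CPM in the vein class, which this gene helped to choose. Mfsd2a, a lipid transporter, was lower by less (-0.43 to -0.23), and Slc2a1, the glucose transporter GLUT1, was higher (0.23 to 0.38). The 14 tight and adherens junction genes had a median of -0.12 and 0 past 1 log2 unit in either direction, with Cldn5 at -0.30 to -0.19. Tmsb10, Ndnf, Fmo2, Ttyh2, Hmcn1, Ctla2a and Gatm completed the 10 genes lowest in arterial cells.

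**Figure D2:**
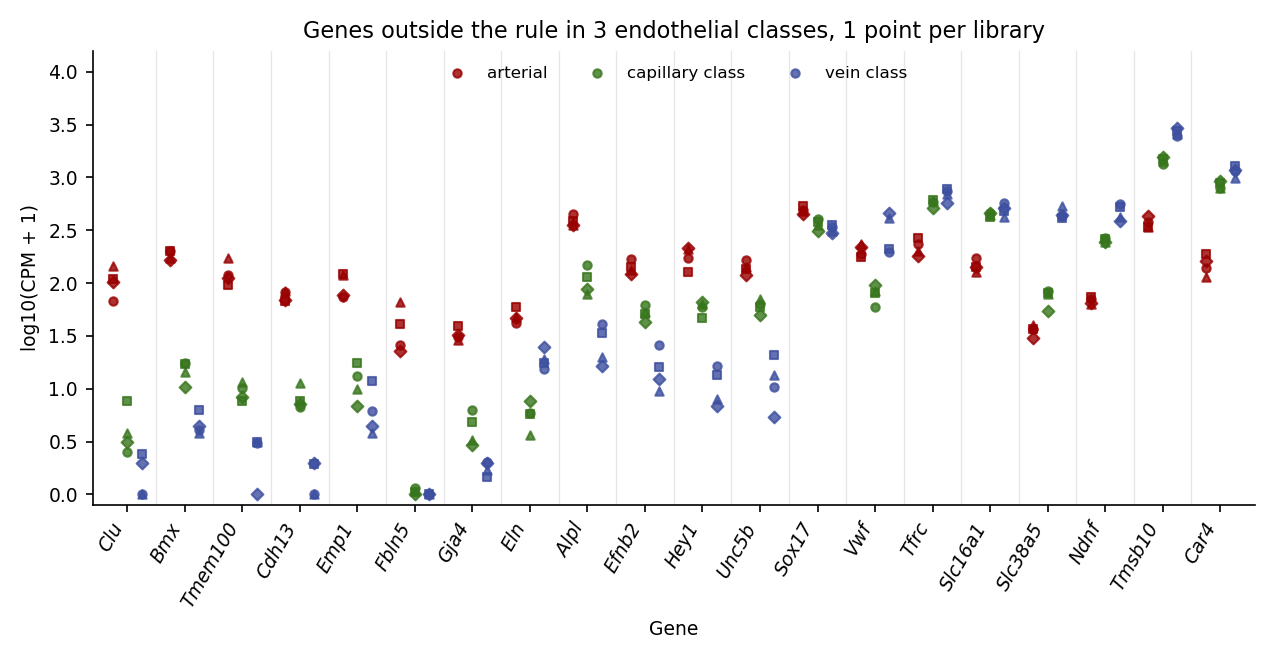
Level of named genes (log10 of CPM plus 1) in the arterial, capillary and vein classes, coloured by class, with 1 marker per library. Clu, Bmx and Hey1 sit higher in the arterial class in all 4 libraries, Car4 and Tfrc sit lower, and Sox17 differs little between classes.

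Within the class the profile was graded with the sum of the 6 genes. Over the steps 0, 1 to 3, 4 to 7, 8 to 15 and 16 or more UMIs, held by 9310, 2798, 795, 483 and 423 cells, the mean Bmx level over libraries was 6.61, 29.7, 98.6, 172 and 342 CPM. Hey1 stood at 39.1, 89.9, 151, 178 and 229 CPM, and Tfrc fell away from 654 through 424, 284 and 198 to 138 CPM. Other genes were found mostly in the top step. Clu stood at 9.56, 46.0 and 346 CPM in the 3 arterial steps, Gja4 at 14.1, 21.5 and 70.9 CPM and Eln at 15.7, 30.0 and 123 CPM. Gja5, which encodes connexin 40 of large arteries, stood at 0.172, 1.05 and 20.2 CPM, with libraries from 5.27 to 52.4 CPM in the top step. The median depth of the 5 steps was 4667, 5421.5, 5907, 6782 and 7297 UMIs, so deeper cells reached higher sums, and the part of depth in these levels was not tested.

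Markers of other cells were low in arterial cells with some exceptions. Of 12 microglia and macrophage markers 9 had a UMI, Tmem119, C1qb and C1qc were at 0, and the summed level was 31.7, 31.3, 27.7 and 31.6 CPM. Csf1r, the drug's target, had 0, 0, 0 and 1 UMI. Smooth muscle markers summed to 62.7, 92.7, 111 and 80.7 CPM with Cnn1 at 0. The 10 pericyte markers summed to 265, 224, 366 and 330 CPM, of which Rgs5 gave 247, 204, 338 and 299.7 CPM. Kcnj8 had 0, 1, 1 and 2 UMIs, but the gate held it low along with Vtn, Abcc9, Acta2, Tagln, Myh11 and Pf4. The low levels of these genes therefore follow in part from the choice of cells. Astrocyte markers, among them Clu, summed to 141, 181, 221 and 197 CPM. Choroid plexus markers summed to 50.3, 132, 46.8 and 54.5 CPM and fibroblast markers to 2.07 to 7.39 CPM with Lum at 0.

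Mgp admitted cells with higher levels of venous genes. Without it 84 arterial cells (4.94%; 8, 24, 27 and 25 per library) fell below 4 UMIs, and 21 of them (25%) carried at least 4 UMIs of Slc38a5 and Nr2f2, the genes used here for veins, against 52 (3.06%) of all arterial cells. Ackr1, the chemokine receptor of venules, stood at 43.4, 215, 720 and 301 CPM in these 84 cells and at 0, 1.06, 0 and 2.57 CPM in the other 1617, so 93.1% of its arterial UMIs came from them. The acute-phase genes Lcn2 (87.0% of UMIs) and Lrg1 (90.3%) behaved likewise. Pooled over libraries the 84 cells had less Bmx (91.6 against 192 CPM) and Hey1 (48.5 against 173 CPM), and more Vwf (991 against 159.6 CPM) and Vcam1 (632 against 83.2 CPM). Their lower Gkn3 (41.3 against 492 CPM) follows from the choice, since Gkn3 counts toward the sum that stayed under 4 UMIs without Mgp. The venous genes of these cells go against the arterial label, while other levels were mixed. Bmx (13.8 CPM in the capillary and 4.18 CPM in the vein class) and Clu (44.9 against 3.94 and 0.928 CPM) stood above both classes. Hey1 stood below the capillary class (56.2 CPM) and above the vein class (10.3 CPM). The diet test and the class model below were refitted without Mgp in the sum, an alternative chosen after seeing the data. In arterial cells this ended 13 of the 54 diet calls described below. Mgp also stood at 124 to 243 CPM in barcodes with under 100 UMIs, which hold mostly free RNA. It was not alone there, since Gkn3 stood at 51.2 to 90.2 CPM, Sema3g at 59.97 to 82.9 CPM and Stmn2 at 57.7 to 98.2 CPM. Vegfc and Fbln2 were present at lower levels. The pooled capillary class had less of Gkn3 (5.27 CPM), Sema3g (32.3 CPM) and Stmn2 (18.4 CPM). Beyond the check in the pericyte gate, the part of free RNA in the class levels was not tested.

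**Figure D3:**
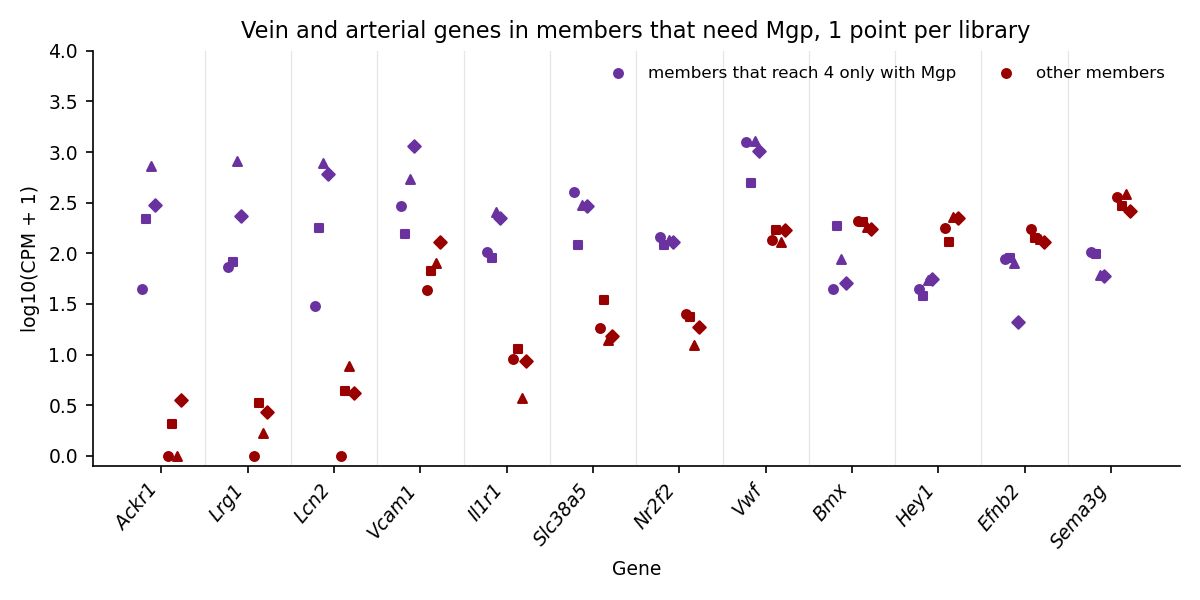
Level (log10 of CPM plus 1) of venous and arterial genes in the 84 cells that reach 4 UMIs only with Mgp (purple) and the other 1617 arterial cells (red), with 1 marker per library. Ackr1, Lcn2, Lrg1 and Vwf sit higher in the 84 cells, and Hey1 sits higher in the others. Sema3g, which counts toward the low sum that defines the 84 cells, also sits higher in the others.

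The share of arterial cells among gated endothelial cells did not separate the diets. It was 12.1% (95% exact binomial interval 10.5 to 13.8), 14.2% (13.3 to 15.2), 8.49% (7.62 to 9.44) and 13.8% (12.6 to 14.98). The PLX5622 mean was 11.1% ± 3.73 (SD, n = 2) and the control mean 13.1% ± 1.49 (SD, n = 2), a difference of -2.01 percentage points. An exact two-sided permutation test over libraries gave p = 0.667, where 0.333 is the smallest p that 2 against 2 libraries allow. After each cell was thinned to 2000 UMIs the shares were 4.70%, 5.33%, 4.43% and 5.87%, and the difference was 0.134 points. It was 0.631 points without PLX5622 diet 1, the shallowest library, and -4.65 points without PLX5622 diet 2. The intervals cover counting error only.

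Gene expression in arterial cells differed between the diets for a small set of genes. Summed counts were tested with edgeR's quasi-likelihood test and Benjamini-Hochberg adjustment over 10253 genes, two-sided at 0.05, and 39 rose (0.38%) and 15 fell (0.146%) on PLX5622, 54 in all (0.527%). Both PLX5622 libraries stood above both controls for 1624 genes (15.8%) and below both for 2152 (21%), and the median log2 fold change of all genes was 0.00 to 2 decimals (-0.000135). The 12 genes with the largest rise, among those at 20 CPM or more and not overlapping between diets, included Cyp51, Msmo1, Hsph1, Vcam1, Insig1, Idi1, Ankrd37, Fdps, Ccn2 and P4ha1. DESeq2 called 6 of these 12, all of sterol metabolism, and 1 lower gene, Olfm5. Leaving out PLX5622 diet 2 ended 38 of the 54 calls, PLX5622 diet 1 ended 19, control diet 2 ended 17 and control diet 1 ended 3. In all 12 genes kept their call without each library in turn, among them 9 of the 10 higher genes just named (all but Ankrd37), Ptgs2 and Olfm5.

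Cholesterol synthesis held 9 of the 39 genes that rose. Among 20 tested, 9 rose, none fell and 11 stayed short of the threshold (median log2 fold change 1.00 against 0.00 over all genes). In both PLX5622 libraries 14 of the 20 stood above both controls, against 15.8% of all genes. Along the pathway the 9 included Hmgcs1 of an early step, Idi1 and Fdps of isoprenoid synthesis, Fdft1 and Sqle, which commit to sterols, and Cyp51 and Msmo1 of the late steps. Fitted the same way, 13 of 20 rose in capillary cells (median 0.87) and 10 of 19 in vein cells (0.89). Over all genes 0.736% rose and 0.453% fell in capillary cells (1.19% in all), and 0.761% rose and 0.232% fell in vein cells (0.993% in all). DESeq2 called 4 of the 9 in arterial cells. Without PLX5622 diet 2 the count was 4 (Fdps, Cyp51, Msmo1 and Idi1), and 9 of 19 rose without Mgp in the sum.

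Cyp51 and Msmo1 act late in the pathway. Cyp51, the lanosterol demethylase, stood at 19.98, 12.2, 42.5 and 45.9 CPM (log2 fold change 1.66 ± 0.21 SE, edgeR adjusted p = 1.59e-08). Msmo1, the methylsterol oxidase, stood at 21.4, 24.6, 55.4 and 69.1 CPM (1.44 ± 0.18, adjusted p = 6.72e-09). In both genes both PLX5622 libraries lay above both controls, as the choice of the 12 genes with the largest rise required. Idi1, an isomerase of isoprenoid units that acts before them, stood at 22.1, 26.1, 55.4 and 59.1 CPM (1.22 ± 0.18), and Fdps, the farnesyl diphosphate synthase, at 34.5, 44.9, 78.2 and 99.6 CPM (1.14 ± 0.16, adjusted p = 1.9e-07). Gm43738 overlaps Fdps on its strand in GENCODE M21, so the 2 may share reads.

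Hmgcs1, Sqle and Fdft1 lost their calls without PLX5622 diet 2. Hmgcs1, the HMG-CoA synthase, stood at 34.5, 31.1, 55.4 and 76.7 CPM (1.10 ± 0.17, edgeR adjusted p = 3.69e-06, but 0.123 without PLX5622 diet 2). Sqle, the squalene epoxidase, had 8, 34, 24 and 71 UMIs (5.51, 5.85, 14.8 and 19.2 CPM, log2 fold change 1.61 ± 0.31) and Fdft1, the squalene synthase, 12, 67, 40 and 93 UMIs, with adjusted p of 0.431 and 0.0928 without PLX5622 diet 2. None of these 3 genes overlapped between the diets. The promoter of Hmgcs1 is shown because it was the only one of the 6 sterol genes with a RefSeq entry, of 12 sought, to hold the sterol regulatory element TCACNCCAC in the 250 bases before the start. It lies at chr13:119690101-119690350 on the plus strand of GRCm38.p6, reads 5' to 3' toward the start, and has the element, 137 bases before the start, in capitals. Of 32851 RefSeq windows of that length 346 (1.05%) held the motif on either strand, and a match of letters is no evidence of binding. There was no entry for Fdps, Sqle or Fdft1.
Hmgcs1: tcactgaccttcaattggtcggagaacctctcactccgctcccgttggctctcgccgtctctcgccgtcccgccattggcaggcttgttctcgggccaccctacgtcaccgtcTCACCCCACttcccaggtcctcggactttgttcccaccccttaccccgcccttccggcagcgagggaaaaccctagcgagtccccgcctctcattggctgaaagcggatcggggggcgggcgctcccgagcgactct

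Of 9 genes of sterol uptake and feedback tested 3 rose and 0 fell (median 0.49), and DESeq2 called 2. Insig1, which holds SREBP in the endoplasmic reticulum when sterols are plentiful, stood at 29.6, 28.4, 59.7 and 72.1 CPM (log2 fold change 1.24 ± 0.17 SE, edgeR adjusted p = 1.63e-07). Both PLX5622 libraries stood above both controls, as the choice of the 12 genes with the largest rise required. Srebf2, which encodes the sterol-sensing transcription factor SREBP2, stood at 62.7, 55.7, 83.7 and 102 CPM (0.72 ± 0.15, adjusted p = 0.00151), with a p of 0.0501 without control diet 2 and 0.493 without PLX5622 diet 2. Stard4, a sterol carrier, had a log2 fold change of 0.49 (adjusted p = 0.106).

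Sterol efflux genes, which the oxysterol receptor LXR induces, moved the other way for 1 of 10 genes tested. Abcg1, a cholesterol exporter, fell by 2.59 ± 0.50 on the log2 scale (7.58, 10.1, 1.85 and 1.35 CPM, from 11, 59, 3 and 5 UMIs, adjusted p = 0.00089), and lost its call without control diet 2 (0.297) or PLX5622 diet 2 (0.278). Abca1, the other main exporter, stood at 81.3, 50.2, 37.6 and 41.3 CPM with no overlap, and its log2 fold change of -0.59 did not pass (adjusted p = 0.112). In the capillary class Abca1 fell by 1.26, and the difference between the classes of 0.69 did not pass (adjusted p = 0.068). Mylip, a ubiquitin ligase induced by LXR, had -0.83 (adjusted p = 0.0544). The list's median was 0.02.

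Fatty acid genes split. Of 10 tested Fasn, which makes palmitate, rose by 1.32 ± 0.34 (6.20, 4.99, 11.1 and 14.3 CPM, edgeR adjusted p = 0.0434) and Scd1, a desaturase, fell by 1.54 ± 0.40 (adjusted p = 0.0468). Fasn lost its call without control diet 2 or PLX5622 diet 2 and Scd1 without any library but control diet 1. Neither passed without Mgp in the sum (0.0704 and 0.0998).

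**Figure D4:**
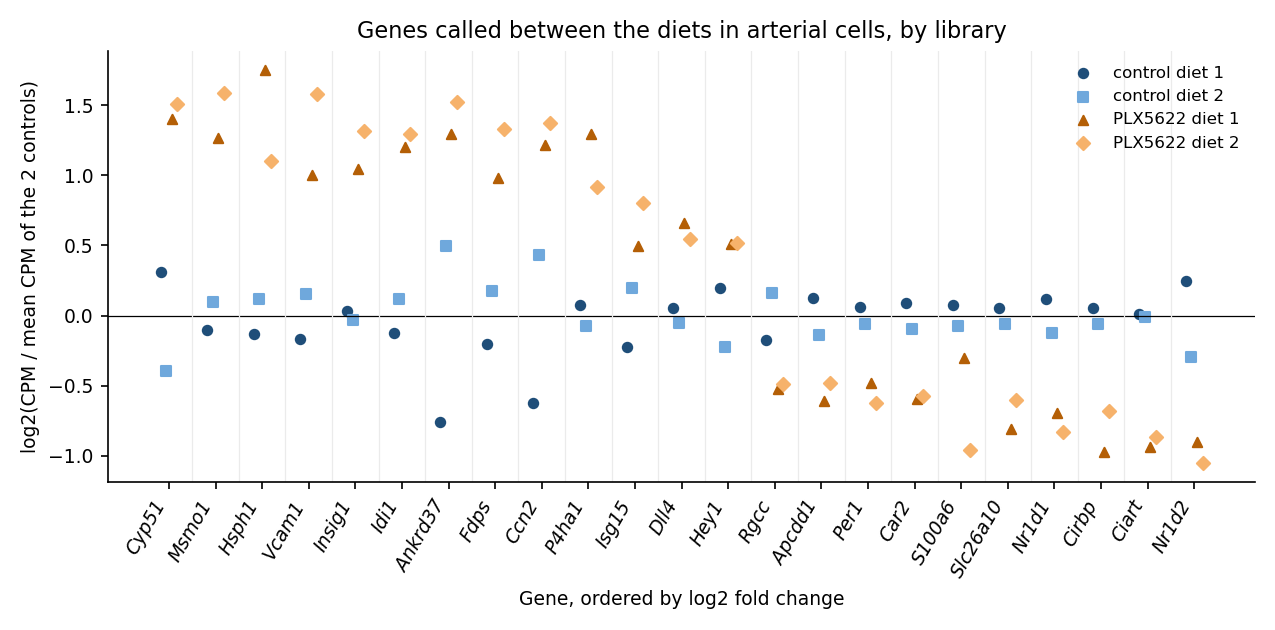
Level of 23 genes in arterial cells relative to the mean of the 2 control libraries (log2 of the CPM ratio), with circles and squares for the control libraries and triangles and diamonds for the PLX5622 libraries. For Insig1 and the sterol enzymes both PLX5622 libraries lie above both controls, and for the clock genes Nr1d1, Nr1d2, Ciart and Per1 both lie below. The choice of these genes required that the diets do not overlap.

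Interferon-response genes stood higher on PLX5622 by a small margin. Among 22 tested, 4 rose, none fell and 18 stayed short of the threshold, with a median log2 fold change of 0.38. In both PLX5622 libraries 17 of 22 stood above both controls, against 15.8% of all genes. Isg15, a ubiquitin-like modifier, stood at 192, 256, 316 and 391 CPM (0.66 ± 0.13, edgeR adjusted p = 0.00151). Ifit1, which binds viral RNA, stood at 130.2, 148, 189 and 229 CPM (0.61 ± 0.12, adjusted p = 0.00155). Ifit2, a relative of Ifit1, rose by 0.73 ± 0.17 and Bst2, which tethers virus particles, by 0.48 ± 0.12. The groups did not overlap for any of the 4. All 4 calls rested on PLX5622 diet 2: without it the adjusted p was 0.423 for Isg15, 0.536 for Ifit1, 0.443 for Ifit2 and 0.893 for Bst2, and 0 of 22 passed, with 4 at an unadjusted p under 0.05. Bst2 was also lost without PLX5622 diet 1 (0.0596) or without Mgp in the sum (0.0642). DESeq2 called 0 of 22, with 9 at an unadjusted p under 0.05, and limma-voom called 4.

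Isg15 and Ifit1 are shown because each holds the interferon-stimulated response element, in capitals, within 250 bases before its start, a match found in 2 of the 4 genes that rose and in 53 of 32851 windows (0.161%) on either strand. The window of Isg15 is chr4:156200819-156201068 (minus strand, match 72 bases before the start) and that of Ifit1 is chr19:34640639-34640888 (plus strand, match on the reverse strand 86 bases before the start), both GRCm38.p6, RefSeq. No match for Ifit2 or Bst2 says only that these letters are not in this window.
Isg15: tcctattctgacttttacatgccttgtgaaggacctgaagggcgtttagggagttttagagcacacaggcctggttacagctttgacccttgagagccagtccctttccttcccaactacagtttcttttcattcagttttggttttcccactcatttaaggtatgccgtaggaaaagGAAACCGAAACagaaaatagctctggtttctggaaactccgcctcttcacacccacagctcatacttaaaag
Ifit1: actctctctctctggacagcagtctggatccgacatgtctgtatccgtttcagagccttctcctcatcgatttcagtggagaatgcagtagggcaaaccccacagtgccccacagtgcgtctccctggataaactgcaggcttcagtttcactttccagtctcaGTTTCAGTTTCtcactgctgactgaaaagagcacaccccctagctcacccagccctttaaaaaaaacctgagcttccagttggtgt

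The 10 lower genes at 20 CPM or more and not overlapping between diets were Nr1d2, Ciart, Cirbp, Nr1d1, Slc26a10, S100a6, Car2, Per1, Apcdd1 and Rgcc. Genes of the circadian clock and of its output were among them. Nr1d1, the repressor REV-ERB alpha, stood at 159, 134, 90.5 and 82.3 CPM and fell by 0.73 ± 0.13 (edgeR adjusted p = 0.00032). Nr1d2, its relative REV-ERB beta, stood at 69.6, 47.8, 31.4 and 28.3 CPM and fell by 0.88 ± 0.18 (adjusted p = 0.00153). Ciart, a clock-controlled repressor, stood at 55.8, 55.2, 28.9 and 30.5 CPM and fell by 0.87 ± 0.17. Per1, a core clock gene that glucocorticoids also induce, stood at 136, 125, 93.6 and 84.5 CPM and fell by 0.53 ± 0.13 (adjusted p = 0.0343). Cirbp, a cold-inducible RNA-binding protein, stood at 133, 123, 65.3 and 79.9 CPM and fell by 0.75 ± 0.14. Both PLX5622 libraries lay below both controls in each, as the choice of the 10 genes required. No list of clock genes was fixed, and these 4 clock genes were grouped after their values were seen. In capillary cells Nr1d1 (-0.60), Nr1d2 (-0.59), Ciart (-0.64) and Cirbp (-0.76) fell too (edgeR adjusted p at most 0.0131). In vein cells Nr1d1 (-0.89) and Cirbp (-0.73) fell (at most 0.00226), while Nr1d2 and Ciart did not pass. Per1 passed in neither class. In the class model below none of these genes differed between arterial cells and either class.

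None of the 10 lower genes kept its call without each library in turn, and DESeq2 called 0 of them. Without PLX5622 diet 2 the adjusted p was 0.144 for Nr1d1, 0.197 for Nr1d2, 0.0758 for Ciart and 0.66 for Per1, and without PLX5622 diet 1 it was 0.073 for Cirbp and 0.165 for Per1. Without Mgp in the sum S100a6 (0.095), Car2 (0.0986) and Rgcc (0.104) did not pass. The labels give no hour of death or sorting per library, so diet and time of day cannot be told apart for clock genes. Ciart and Per1 are shown as the 2 of 4 clock genes with the E-box CACGTG, the letters that CLOCK and BMAL1 are known to bind, in capitals. The motif is common, in 1978 of 32851 windows (6.02%). The window of Ciart is chr3:95882229-95882478 (minus strand, matches 116, 58 and 44 bases before the start) and that of Per1 is chr11:69098699-69098948 (plus strand, match 166 bases before the start), GRCm38.p6, RefSeq.
Ciart: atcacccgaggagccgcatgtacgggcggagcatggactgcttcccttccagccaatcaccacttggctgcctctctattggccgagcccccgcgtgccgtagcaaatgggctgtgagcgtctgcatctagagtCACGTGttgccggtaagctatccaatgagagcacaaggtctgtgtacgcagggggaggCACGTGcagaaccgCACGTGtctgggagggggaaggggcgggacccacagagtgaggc
Per1: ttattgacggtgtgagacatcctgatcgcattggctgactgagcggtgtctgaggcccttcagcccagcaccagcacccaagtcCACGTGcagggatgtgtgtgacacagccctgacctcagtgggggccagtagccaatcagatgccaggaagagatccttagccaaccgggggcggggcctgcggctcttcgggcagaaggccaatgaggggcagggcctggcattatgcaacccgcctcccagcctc

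Of the genes that set arterial identity, 2 in the Notch pathway rose and the rest of the list did not pass. Dll4, the endothelial Notch ligand (chromosome 2 from 119325784 to 119335962), stood at 118, 109, 179 and 165 CPM (log2 fold change 0.63 ± 0.13, edgeR adjusted p = 0.00139), with no overlap. It lost its call without PLX5622 diet 1 (0.0822). Hey1, its nuclear target gene (chromosome 3 from 8663359 to 8667256), stood at 170.2, 127, 211 and 212 CPM (0.58 ± 0.12, adjusted p = 0.00316), and lost its call without control diet 2 (0.186), PLX5622 diet 1 (0.0816) or PLX5622 diet 2 (0.19). Among 16 tested, 2 rose and 14 stayed short of the threshold, with a median of -0.00. Hes1 had -0.35 (adjusted p = 0.333), Gata2 -0.37 (0.215) and Sox17 -0.11 (0.923).

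The structural side of arterial identity held few calls. Of 14 guidance, junction and surface genes 0 passed in edgeR, where 2 had an unadjusted p under 0.05, and 0 in DESeq2 or limma-voom (median -0.08). Bmx had a log2 fold change of -0.23 (adjusted p = 0.735), Efnb2 -0.24 (0.735) and Gja4 -0.22 (0.893). Of 22 wall and elastic fibre genes S100a6, a calcium-binding protein, fell by 0.62 (86.1, 77.7, 66.5 and 42.1 CPM, adjusted p = 0.0374), with a p of 0.98 without PLX5622 diet 2, and 0 rose. Eln had -0.18 (0.903). Of 23 tone and shear stress genes Ptgs2 alone passed, while Nos3 had -0.11, Klf2 -0.22 and Klf4 -0.23. A p that misses the threshold does not show that a gene was the same on both diets.

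Each of the 6 genes that chose the cells was tested by diet in cells chosen by the other 5, and none passed. Gkn3 had a log2 fold change of 0.44 (edgeR adjusted p = 0.591), Sema3g -0.13 (0.929), Vegfc 0.20 (0.812), Stmn2 0.24 (0.695), Fbln2 -0.32 (0.587) and Mgp 0.72 (0.954). In the arterial cells themselves Gkn3 stood at 385, 408, 432 and 624 CPM, and PLX5622 diet 2 was the high library. Without PLX5622 diet 1 Gkn3 passed (0.76, adjusted p = 0.0252), and without PLX5622 diet 2 its value was 0.01. Mgp stood at 345, 926, 1273 and 840.2 CPM, with the 2 controls far apart, and passed without control diet 2 (1.69, adjusted p = 2.74e-28).

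Vcam1 and Ptgs2 rose, and neither passed once the cells that Mgp admitted were left out. Vcam1, the leukocyte adhesion molecule, stood at 54.4, 68.1, 123 and 184 CPM (1.32 ± 0.16, edgeR adjusted p = 8.31e-07) and kept its call without each library. Without Mgp in the sum its log2 fold change was 0.91 and it did not pass (adjusted p = 0.464), and in the 1617 cells that do not need Mgp it stood at 42.7, 66.0, 80.0 and 129 CPM, without overlap. Ptgs2, the inducible cyclooxygenase, stood at 17.2, 31.3, 69.0 and 48.6 CPM (1.07 ± 0.20, adjusted p = 0.0017), and at 0.34 (0.905) without Mgp. Cebpd, an acute-phase transcription factor, rose by 0.72 ± 0.13 (adjusted p = 0.000564) and by 0.61 (0.0141) without Mgp, but lost its call without PLX5622 diet 2 (0.133). Of 15 inflammatory genes 2 rose (Ptgs2 and Cebpd) with a median of 0.27; without Mgp it was 1 of 13 with a median of -0.02. Lcn2 stood at 1.38, 7.39, 78.8 and 36.4 CPM and Ackr1 at 2.07, 6.02, 66.5 and 18.9 CPM, and neither passed in edgeR (adjusted p = 0.625 and 0.803). With any 1 library left out Lcn2 did pass (adjusted p at most 1.26e-08), and Ackr1 did except without control diet 1 (0.97). Without Mgp in the sum both had too few counts to be tested. The list of 10 vein markers summed to 852, 807, 1130 and 1112 CPM in arterial cells, against 1632 to 1966 CPM in capillary and 3862 to 5786 CPM in vein cells. Besides the fit without Mgp, another left out arterial cells with at least 4 UMIs of Slc38a5 and Nr2f2. There 41 of the 54 diet calls stayed and 13 did not pass. The part of the other vein markers in these calls was not tested.

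Stress and matrix genes added a few rises. Hsph1, a large heat shock protein, stood at 11.7, 13.9, 43.1 and 27.5 CPM (1.35 ± 0.23, edgeR adjusted p = 0.000108), and Dnaja1, a co-chaperone, at 387, 382, 605 and 473 CPM (0.51 ± 0.13, adjusted p = 0.0344). Dnaja1 lost its call without PLX5622 diet 1 (1.00), PLX5622 diet 2 (0.0969) or Mgp in the sum (0.0651). Of 11 heat shock genes these 2 rose, 0 fell, and the median was 0.32, while DESeq2 called 0 with 4 at an unadjusted p under 0.05. Ankrd37, a hypoxia-inducible gene, stood at 8.27, 19.8, 34.5 and 40.2 CPM (1.20 ± 0.22, adjusted p = 0.000592, and 0.066 without PLX5622 diet 2). It was joined by Ldha, lactate dehydrogenase, with 0.50, as the 2 of 11 hypoxia and glycolysis genes that rose (median 0.11). Ldha was lost without PLX5622 diet 1 (0.89), PLX5622 diet 2 (0.0722) or Mgp in the sum (0.0855), so that 1 of 11 rose in either list without Mgp. P4ha1, a collagen prolyl hydroxylase, stood at 17.9, 16.2, 41.9 and 32.1 CPM (1.12 ± 0.21), and Ccn2, a matricellular protein that YAP and TGF-beta induce, at 15.2, 31.5, 54.2 and 60.5 CPM (1.13 ± 0.19).

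Barrier genes gave few calls in arterial cells. Of 14 tight and adherens junction genes 0 passed in any of the 3 tools (edgeR, limma-voom and DESeq2), and 0 had even an unadjusted p under 0.05 (median -0.12). Of 18 blood-brain barrier transporters 0 passed in these tools, and an unadjusted p under 0.05 was found for 0 in edgeR and 2 in each of the others (median -0.06). Cldn5, the main claudin of brain endothelium, stood at 5859, 7097, 5957 and 6474 CPM, overlapping between diets, with a log2 fold change of -0.03 and a 95% interval of -0.35 to 0.28. Slc2a1 had 0.04 with an interval of -0.24 to 0.33. Of 19 genes of Wnt signalling, which maintains the barrier, Apcdd1, a Wnt inhibitor and target, fell by 0.49 (386, 321, 231 and 253 CPM, adjusted p = 0.0272), with a p of 0.89 and 0.308 without PLX5622 diet 1 and 2. Without Mgp in the sum 1 transporter passed as lower, Slc38a5. Below both controls in both PLX5622 libraries stood 8 of 14 junction genes, 7 of 18 transporters and 10 of 19 Wnt genes, against 21% of all genes. Above both controls stood 0, 0 and 2, against 15.8% of all genes.

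Remaining lists held 1 call or none. Of 12 VEGF, angiopoietin and tip cell genes Dll4 alone rose, and Angpt2, the Tie2 ligand, had 1.18 (adjusted p = 0.215). Of 15 TGF-beta and BMP genes 0 passed in edgeR, with 2 at an unadjusted p under 0.05. Of 12 immediate early genes 0 passed in any tool, and an unadjusted p under 0.05 was found for 4 in edgeR, 4 in DESeq2 and 5 in limma-voom. In both PLX5622 libraries 10 of the 12 stood below both controls, against 21% of all genes (median -0.18). Of 12 glucocorticoid and FOXO targets Per1 alone fell (median -0.19). Outside the lists Olfm5, an olfactomedin-domain gene, stood at 33.8, 21.3, 5.54 and 3.51 CPM and fell by 2.58 ± 0.33 (edgeR adjusted p = 1.59e-08), the lower gene that kept its call without each library and in DESeq2. Rgs5, a regulator of G-protein signalling and a pericyte marker, rose by 0.54 ± 0.12 (adjusted p = 0.00801), and the other 9 pericyte markers summed to 17.2, 20.1, 28.3 and 30.8 CPM, higher in the same 2 libraries. Their part in the result was not tested. It lost its call without control diet 2 (0.0797), PLX5622 diet 1 (0.54) or PLX5622 diet 2 (0.0944).

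Whether the diet difference was particular to arterial cells was tested in 1 model over the 12 sums of 3 classes, with the library as a block. Over 11362 genes the signed log2 fold change was higher in arterial than in capillary cells for 12 (0.106%) and lower for 3 (0.0264%). A higher value can mean a weaker fall rather than a stronger rise. Against vein cells the signed log2 fold change was higher for 9 (0.0792%) and lower for 24 (0.211%), or 0.132% and 0.29% of genes for the 2 contrasts in all. The 9 include Sema3g, whose UMIs helped to define the classes, so nothing is read from its value, and it did not pass with the stricter classes given below (adjusted p = 0.984). In the diet test of arterial cells alone 0 of the 15 genes that differed from capillary cells passed. Of the 33 that differed from vein cells 4 passed there, against 0.527% of all genes. No sterol gene named here was among the genes of either contrast. Cyp51 had log2 fold changes of 1.66, 1.33 and 1.66 in arterial, capillary and vein cells, a difference from capillary cells of 0.38 ± 0.21 and from vein cells of 0.06 ± 0.29. Insig1 had values of 1.24, 1.502 and 1.63, with differences of -0.26 ± 0.17 and -0.37 ± 0.23.

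Of the 15 genes that differed from capillary cells, 7 fell on PLX5622 in capillary cells, 1 rose there and 7 did not pass there. Plpp3, a lipid phosphatase that also stands on the list of fenestrated endothelial markers, read 28.9, 28.0, 32.0 and 31.3 CPM in arterial cells and 24.7, 34.5, 11.7 and 14.3 CPM in capillary cells (difference 1.41 ± 0.21, edgeR adjusted p = 5.18e-05). Cd24a, a surface sialoglycoprotein, read 73.7, 53.7, 37.6 and 51.3 CPM against 20.4, 21.9, 8.72 and 6.27 CPM (1.17 ± 0.22, adjusted p = 0.00348). Alpl, an identity gene above, read 450.0, 389, 356 and 353 CPM against 148, 114, 78.6 and 86.3 CPM (0.38 ± 0.08, adjusted p = 0.0154). Clu, at 1.39 ± 0.26 (adjusted p = 0.00348), stood at 1.54, 6.59, 2.78 and 2.11 CPM in capillary cells, where control diet 2 was high, and did not pass without Mgp in the sum (0.197). Without control diet 2 the 5 leading differences, Plpp3, Rad54b, Igfbp3, Clu and Cd24a, all missed the threshold (adjusted p of 0.286 to 0.994).

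Of the 33 genes that differed from vein cells, 16 rose on PLX5622 in vein cells, 2 fell there and 15 did not pass there. Cp, the ferroxidase ceruloplasmin, read 236, 276, 311 and 305 CPM in arterial and 73.3, 90.2, 215 and 215 CPM in vein cells (difference -1.09 ± 0.12, edgeR adjusted p = 4.27e-10). Fth1, the ferritin heavy chain, read 1477, 1681, 2044 and 1877 CPM against 1125, 1268, 2301 and 2490 CPM (-0.69 ± 0.07, adjusted p = 4.27e-10). Vwf, von Willebrand factor, read 189, 174, 236 and 217 CPM against 195, 210.1, 416 and 455 CPM (-0.76 ± 0.12, adjusted p = 0.00116, but 0.266 without Mgp in the sum). In these genes the vein libraries on PLX5622 lay well above both controls, and the arterial values moved less. Cxcl1, a neutrophil chemokine, differed by -1.06 ± 0.18 (adjusted p = 0.000332), and lost its call without control diet 2 (0.753). Ackr1 differed by -2.62 (adjusted p = 0.0408), and by -1.67 (0.774) when arterial cells needed at least 8 and vein cells at most 1 UMI of the 6 genes, and by -2.87 (0.287) without Mgp in the sum.

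In the other direction Ccn2, Hey1 and Dll4 stood out from vein cells. Hey1 differed from them by 1.68 ± 0.33 (edgeR adjusted p = 0.00278), with 15.5, 12.4, 7.02 and 5.93 CPM in vein cells. Its log2 fold change of -1.03 in vein cells alone did not pass (edgeR adjusted p = 0.373). Ccn2 differed by 1.11 ± 0.21 (adjusted p = 0.00126) and Dll4 by 0.75 ± 0.17 (adjusted p = 0.0228). None of these 3 passed with the stricter classes (0.0684, 0.102 and 0.243). Against capillary cells their differences of 0.22, 0.14 and 0.09 did not pass (adjusted p of 1.00 each). In capillary cells alone Dll4 rose as well (0.53, edgeR adjusted p = 0.00897). There Hey1 (0.38, adjusted p = 0.110) and Ccn2 (1.03, adjusted p = 0.177) did not pass.

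**Figure D5:**
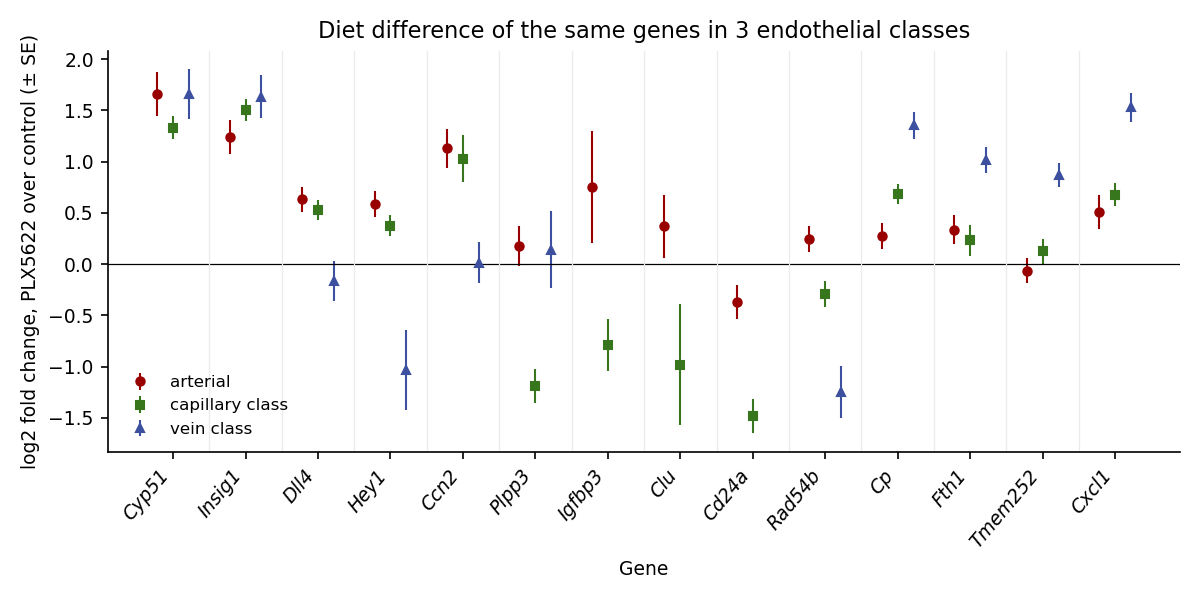
Diet difference (log2 fold change, PLX5622 over control, with bars of 1 SE) of 14 genes in the arterial, capillary and vein classes. Cyp51 lies at 1.66, 1.33 and 1.66, Cp and Fth1 are higher in the vein class, and Hey1 lies above 0 in arterial and below 0 in vein cells.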

How the data were processed

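The deposited matrices contain unnormalized UMI counts (whole numbers), 1 matrix per library, for barcodes with no cell calling applied. Software named in the submitters' processing notes is Cell Ranger 6.0.1 and Seurat 4.0, with the builds mm10 and mm39, and per the file headers it is Cell Ranger 4. Annotation of the counts: not given in the sources used here. Coordinates came from GENCODE M21 (GRCm38), where 32235 of 32285 gene IDs were found, and promoter sequences from RefSeq (GRCm38.p6).

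Cells were chosen as the report says, and their counts were summed per library, since cells are not replicates. The test was edgeR 4.0.16 quasi-likelihood (robust, R 4.3.3) with TMM normalization (factors 0.9873 to 1.035), its default low-count filter and Benjamini-Hochberg adjustment, two-sided at 0.05. DESeq2 1.42.0 and limma-voom 3.58.1 were alternatives. On simulated counts with 10085 genes, the diet test recovered 33% of 1.5-fold and 71.7% of 2-fold changes and called 3 unchanged genes. The class model, with 11179 genes, recovered 65.7% of 2-fold changes against capillary cells and called 6 unchanged genes. Its simulated sums held no library effect, and the contrast with vein cells was not simulated. Libraries differed beyond sampling noise (chi-square per degree of freedom 2.02 to 3.96). Shares have exact binomial intervals (scipy 1.17.1). Thinning used a fixed seed.

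The cells, gene lists and classes were chosen with earlier results of these data known. The rule for named genes took the 12 higher and up to 12 lower genes by fold change, of which 10 were found (adjusted p under 0.05, at least 20 CPM, no overlap), up to 4 genes per list, the 5 smallest p per class contrast, and the 20 highest and 10 lowest identity genes at 50 CPM or more. Some genes that this rule names are not reported here. Of the listed genes Mx1 and Aldoa have no values here. Other marker lists in arterial cells summed to 22200 to 22887 CPM (pan-endothelial), 6821 to 7967 (capillary), 65.9 to 82.7 (fenestrated), 31.7 to 125 (erythroid), 8.96 to 12.7 (neuron), 14.2 to 20.8 (oligodendrocyte), 11.7 to 16.5 (platelet) and 2.07 to 16.2 (immune cells). The gate sets limits on genes of the pan-endothelial, erythroid and platelet lists.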

Additional observations from a re-analysis of the deposited data

Results flagged for a closer look

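For 10 gene and class pairs the diet difference in arterial cells was itself different from that in another class (edgeR interaction, adjusted p under 0.05; the 5 smallest p in each contrast). Against capillary cells these were Plpp3 (difference in log2 fold change 1.41), Rad54b (0.59), Igfbp3 (1.59), Clu (1.39) and Cd24a (1.17). Igfbp3, which encodes a binding protein of insulin-like growth factors, stood at 34.5, 66.2, 125 and 69.9 CPM in arterial cells and 6.33, 10.5, 6.27 and 4.09 CPM in capillary cells. Without control diet 2 the adjusted p of the 5 lay between 0.286 and 0.994, and without PLX5622 diet 2 that of Cd24a was 0.811.

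Against vein cells the 5 were Cp (-1.09), Fth1 (-0.69), Tmem252 (-0.91), Rad54b (1.55) and Cxcl1 (-1.06). Tmem252, a small membrane protein, stood at 243, 221, 238 and 198 CPM in arterial cells and 254, 297, 503 and 509.8 CPM in vein cells. Rad54b, a DNA repair gene, stood at 223, 174, 252 and 203 CPM in arterial, 96.3, 81.2, 80.9 and 58.5 CPM in capillary and 37.2, 34.0, 17.5 and 12.4 CPM in vein cells. Fsbp overlaps Rad54b on the same strand in GENCODE M21, so the reads of the 2 genes cannot be told apart. Without control diet 2 Rad54b (adjusted p = 0.11) and Cxcl1 (0.753) did not pass against vein cells. All 10 passed with stricter classes, and without Mgp in the sum all but Clu against capillary cells did (0.197).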

How the results depend on the processing

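The counts of 39 higher and 15 lower genes were 6 and 1 in DESeq2, and 30 to 106 and 9 to 44 with 1 library left out. The lower count was 2 with sums thinned to the smallest library, 8 with at most 5% mitochondrial UMIs, 8 without the 5% of cells with the most UMIs, and 8 with each cell thinned to 2000 UMIs (18 higher; chosen after seeing the data). RLE scaling (39 and 14), library totals (33 and 17) and limma-voom (44 and 16) stayed within 1.5 times, as did the sum without Mgp (33 and 14; chosen after seeing the data). The 54 genes kept their direction in every fit that tested them, and the calls kept per alternative ran from 7 (DESeq2) to 54. The replicate numbers were not taken as pairs, since the labels name no shared source. Deviations of same-numbered libraries correlated at 0.00999 over 10253 genes and at 0.113 over the 3439 above 50 CPM. With 2 pairs these values cannot exclude a batch shared by libraries of the same number. With the replicate block 76 genes were higher and 33 lower, and all 54 calls stayed.

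Of class differences, arterial minus capillary gave 12 higher (2 to 16 with 1 library left out) and 3 lower (2 to 14), with 11 lower without a filter on low counts 14 with stricter classes and 12 without Mgp in the sum. Arterial minus vein gave 9 higher (1 to 13; 3 with stricter classes, 14 without Mgp in the sum) and 24 lower (11 to 29). The share difference was 0.134 points after thinning, -0.367 points when the sum also had to be 0.1% of UMIs, and -4.65 to 0.631 points with 1 library left out. Sema3g by diet, in cells chosen without it, was -0.13, and ranged from -0.33 (without PLX5622 diet 1) to 0.10 (without PLX5622 diet 2) with 1 library left out. The cause of these changes was not tested. Interferon genes higher were 0 to 7 of 22 with 1 library left out, and heat shock genes 1 to 5 of 11.

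With 2 libraries per diet a lone library is assumed to vary like the other pair when 1 is left out. Genes at a few CPM, such as Abcg1, Scd1 and Gja5, rest on few UMIs per library, and smaller differences were not detectable at this depth.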

Other observations

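Other genes that rose in arterial cells on PLX5622, outside the genes named by the rule, included further interferon-linked genes that the fixed list did not hold, chosen here after their values were seen. Oas2, a sensor of double-stranded RNA, stood at 15.2, 14.3, 33.2 and 24.3 CPM (log2 fold change 0.95, edgeR adjusted p = 0.0296). Zbp1, a sensor of Z-form nucleic acid, stood at 10.3, 6.36, 17.2 and 16.7 CPM (1.20, adjusted p = 0.0346), and Trim34a at 33.1, 31.6, 49.3 and 54.3 CPM (0.72, adjusted p = 0.0151). Oas2 and Zbp1 did not pass without Mgp in the sum (0.0548 and 0.0704). Erg28, which scaffolds sterol demethylation enzymes, stood at 22.1, 20.5, 34.5 and 36.7 CPM (0.79, adjusted p = 0.0343), and Dbi, which binds acyl-CoA, at 151, 177, 219.8 and 255 CPM (0.54, adjusted p = 0.00805). Acer2, a ceramidase, stood at 134, 154, 208 and 214 CPM (0.56, adjusted p = 0.00505). None of these 6 overlapped between the diets, and each lost its call without 1 or more libraries: without PLX5622 diet 2 the adjusted p was 0.606 for Dbi, 0.26 for Acer2, 0.521 for Erg28, 0.352 for Zbp1 and 0.473 for Trim34a, and without PLX5622 diet 1 it was 0.426 for Oas2.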
